A study of Mus musculus with 12 samples.

Results

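Mouse gastruloids treated with the glucose analog 2-DG (2-deoxy-D-glucose) were compared with gastruloids from which glucose had been withdrawn. Gastruloids are aggregates of embryonic stem (ES) cells that form posterior mesoderm and neural tissue and elongate along 1 axis. The 6 libraries of this comparison, of 12 in the series, were chosen by their labels, which give 5 mM 2-DG in 1× glucose medium for 3 libraries and no glucose (0×, 0 mM) for the other 3. Both treatments were given from day 3, and polyA RNA was taken on day 4. In 1× medium glucose is at 21.25 mM, so the groups differ in the analog and in glucose at once. The 3 libraries of untreated 1× glucose are therefore given beside them, and 3 libraries of 3× glucose (63.75 mM) entered the fit only. All groups were made from 200 cells of E14TG2a, a mouse ES cell line grown in 2i and LIF, all received a pulse of the Wnt agonist CHIR99021 on day 2, and all media held pyruvate. Each library is a pool of gastruloids, and the 3 libraries of a group come from ES cells of passage 13, 15 and 16. Where 3 values follow each other below, they are the libraries of these passages in that order.

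2-DG differs from glucose by the loss of the hydroxyl group on carbon 2. Cells take it up and phosphorylate it, but it cannot pass through glycolysis, so it slows the pathway at its first steps. At the same carbon it also resembles mannose, and it can replace mannose in the sugar chains that are built on the lipid dolichol and then transferred to proteins in the endoplasmic reticulum (ER). Proteins that lack their N-glycans fold poorly, and misfolded proteins in the ER switch on the unfolded protein response through the sensors PERK, IRE1 and ATF6. Withdrawal of glucose removes the fuel of glycolysis and the usual source of mannose phosphate, while pyruvate can still feed the mitochondria. In gastruloids the posterior end expresses *T/Bra*, *Wnt3a* and the Cdx genes, which keep axial progenitors in a state from which presomitic mesoderm and spinal cord form.

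The libraries held 33666332, 37009806 and 37496932 estimated counts in 2-DG and 31902471, 34266196 and 32704008 in 0× glucose. Levels are given as CPM (a gene's counts scaled to a common library size), and differences as log2 fold changes of 2-DG against 0× glucose with their standard error (SE), from edgeR's quasi-likelihood test with the passage as a block. The labels name the cell type as ES cell, but 8 markers of ES cells summed to 58.4 to 72.5 CPM in 2-DG and to 30.1 to 41.8 CPM in 0× glucose. In comparison, 5 markers of posterior tissue (*T/Bra*, *Cdx2*, *Tbx6*, *Wnt3a*, *Hoxc6*) summed to 337 to 432 CPM in 2-DG and to 546 to 1103 CPM in 0× glucose. Passage 13 stood apart from passages 15 and 16 in every group, and 7840 genes (46.2%) differed between passages. Of 8 markers of feeder fibroblasts, 2 (*Lum*, *Fap*) were at 0 in all 6 libraries, and the sum of the 8 overlapped between the groups, at 10.7 to 14.5 CPM in 2-DG and 11.1 to 16.3 CPM in 0× glucose. Single markers differed, with 2 called higher and 2 lower in 2-DG of the 5 tested. The sum of 6 trophoblast markers overlapped as well, at 0.959 to 1.87 CPM in 2-DG and 1.51 to 2.47 CPM in 0× glucose, and 1 of the 2 tested was called lower in 2-DG.

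Between 2-DG and 0× glucose, 7305 of the 16966 genes that were tested differed (adjusted p-value under 0.05), which is 43.1% of the genes. They divided into 3655 genes higher in 2-DG (21.5%) and 3650 lower (21.5%), and the median log2 fold change of all genes was 0.0031. Most differences were small, since 4693 of the called genes (64.2%) lay within 0.5 of 0 on the log2 scale. A log2 fold change of at least 1 in either direction was reached by 1052 called genes (6.2% of those tested), with 656 higher (3.87%) and 396 lower (2.33%). Of the 632 tested genes of the 53 gene lists used here, 66.1% were called. Without the passage as a block 3207 genes were called, and without the libraries of passage 13 there were 6058. Against 1× glucose, 7001 genes (41.3%) were called for 2-DG and 3 (0.0177%) for 0× glucose, with 1591 genes at an unadjusted p-value under 0.05 in the latter and 62 genes called by DESeq2. These contrasts share the 1× glucose libraries and are given only as values side by side.

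Some targets of glucose-sensing factors moved in opposite directions from the control in 2-DG and in glucose withdrawal. *Txnip*, an arrestin that restrains glucose uptake, *Arrdc4*, a related arrestin, and *Klf10*, a zinc finger repressor, are targets of MondoA and ChREBP, transcription factors that respond to phosphorylated hexoses. *Txnip* stood at 185, 166 and 154 CPM in 2-DG and at 41.4, 33.8 and 47.9 CPM in 0× glucose, with 97.7, 86 and 93.5 CPM in 1× glucose between them. It was 4.12-fold higher in 2-DG than in 0× glucose (log2 fold change 2.04, SE 0.09, adjusted p = 3.5e-07, edgeR). *Arrdc4* was at 130.3, 147 and 129.9 CPM in 2-DG and at 34, 40.5 and 44.1 CPM in 0× glucose, a log2 fold change of 1.78 (SE 0.07). *Klf10* was at 105, 100.3 and 95.5 CPM in 2-DG and at 29.3, 29.1 and 26.4 CPM in 0× glucose, a log2 fold change of 1.83 (SE 0.04). In all 3 genes the groups did not overlap and 1× glucose lay between them. Against 1× glucose the 3 genes were at log2 fold changes of 0.87, 0.94 and 0.91 in 2-DG and of −1.17, −0.85 and −0.92 in 0× glucose. These are also the 3 genes called between 0× and 1× glucose.

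**Figure D1:**
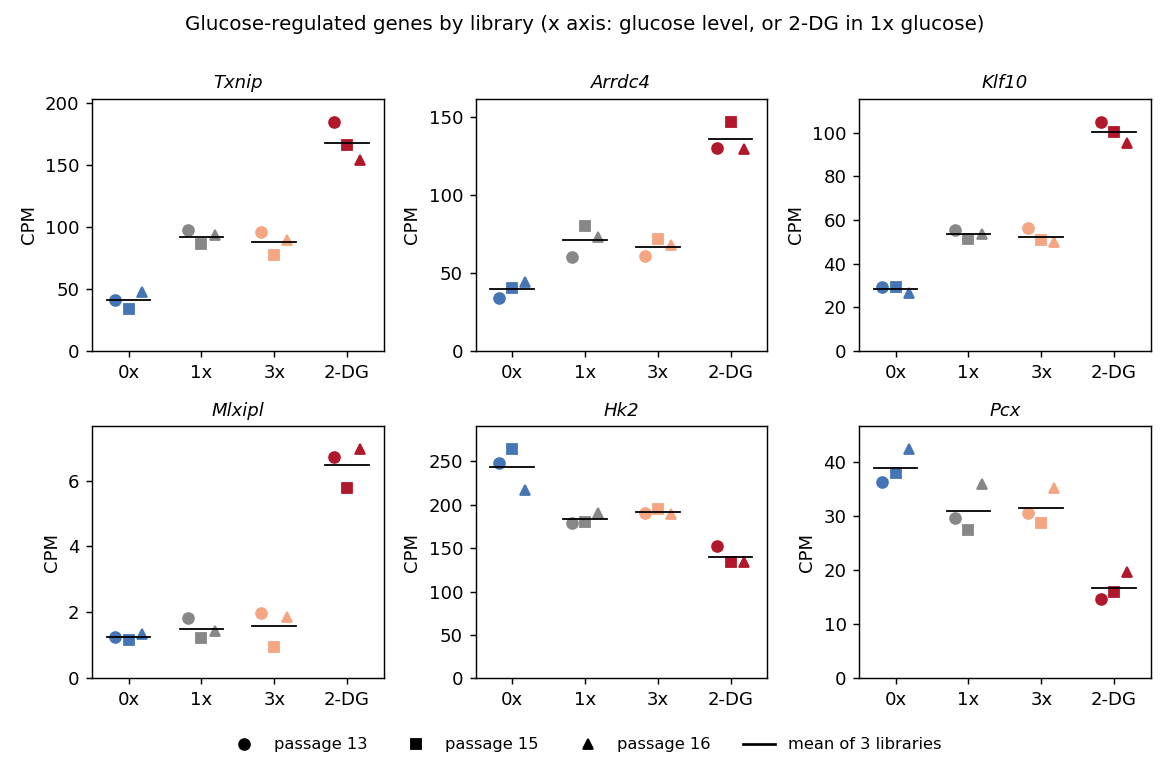
CPM (y axis, from 0) of 6 glucose-regulated genes in the 12 libraries, by group (x axis) and passage (symbol), with the mean of 3 libraries as a line. *Txnip*, *Arrdc4* and *Klf10* are lowest in 0× glucose and highest in 2-DG, whereas *Hk2* and *Pcx* have the reverse order.

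*Mlxipl*, which encodes ChREBP itself, was at 6.73, 5.78 and 6.95 CPM in 2-DG and at 1.26, 1.16 and 1.33 CPM in 0× glucose (log2 fold change 2.37, SE 0.17, adjusted p = 3.95e-06, edgeR). Here 0× and 1× glucose were close, at a log2 difference of −0.24 (SE 0.18). With the most abundant of its 16 transcripts alone, *Mlxipl* was not called. Of the 6 genes of this list, 4 were called higher and 1 lower, with a median of 1.81. The 6-base E-box CACGTG, which MondoA and ChREBP can bind in pairs, was searched on both strands of RefSeq promoters (build GRCm38.p6, 250 bases before to 50 after the start). It stood in the promoters of *Arrdc4*, *Mlx* and *Mlxipl*, 3 of the 5 genes of this list with a promoter, and in 7.15% of all 32851 promoters. The *Txnip* promoter window held no match to these letters. The matches of both genes that rose are shown with the E-box in capitals, on the strand of the gene.
Arrdc4 at chr7:68749412-68749445, minus strand: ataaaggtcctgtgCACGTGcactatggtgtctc
Mlxipl at chr5:135089778-135089811, plus strand: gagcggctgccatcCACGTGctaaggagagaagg

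Of 23 genes of glucose and lactate transport and glycolysis, 9 were called higher and 12 lower in 2-DG, with a median log2 fold change of −0.10. The members moved both ways by less than 1 on the log2 scale. *Hk2*, the hexokinase that traps glucose in the cell, was at 153, 134 and 134 CPM in 2-DG and at 248, 264 and 217 CPM in 0× glucose (log2 fold change −0.79, SE 0.07, adjusted p = 9.49e-06, edgeR). The groups did not overlap, and 1× glucose lay between them at 179, 180.3 and 190.1 CPM, without a call against 0× glucose (adjusted p = 0.119). *Slc16a3*, which exports lactate, was lower in 2-DG by −0.53 (SE 0.12). *Ldhb*, the lactate dehydrogenase subunit that favors lactate use, was higher at 168, 129 and 159 CPM against 93, 72.2 and 91 CPM (log2 fold change 0.83, SE 0.06). The glucose transporters *Slc2a1* and *Slc2a3* both rose by 0.52 (SE 0.04 and 0.10), in all 3 passages. For both transporters and for *Slc16a3* the groups overlapped, with passage 13 the highest in each group, and without the passage as a block none of the 3 was called.

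Of 17 genes of the citric acid cycle, pyruvate and glutamine, 3 were called higher and 4 lower, a share near the 43.1% of all genes called, and the median was 0.02. *Pcx*, pyruvate carboxylase, which makes oxaloacetate from pyruvate, was at 14.6, 15.9 and 19.7 CPM in 2-DG and at 36.3, 38 and 42.3 CPM in 0× glucose. This is 2.34-fold lower in 2-DG (log2 fold change −1.22, SE 0.06, adjusted p = 8.53e-07, edgeR), and every 2-DG library lay below every 0× library. Against 1× glucose *Pcx* was at −0.89 in 2-DG and at 0.33 in 0× glucose, where it was not called (adjusted p = 0.163, edgeR). *Mpc1*, a subunit of the mitochondrial pyruvate carrier, was lower by −0.77 (SE 0.12), while its other subunit *Mpc2* was at 0.31 (SE 0.12) and not called. *Pdha1*, of pyruvate dehydrogenase, was called higher (0.15, SE 0.04). Of 7 pentose phosphate genes 3 were called lower and none higher, which is again the share of all genes called.

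Genes of protein folding in the ER were higher in 2-DG. All 17 ER chaperones and disulfide isomerases tested were called higher in 2-DG, with a median log2 fold change of 0.91, where 21.5% of all genes were called higher. In 0× glucose their median against 1× glucose was 0.11, beside 0.0024 for all genes. In that contrast 0 of 17 were called, but so were only 0.0177% of all genes, so this count does not set them apart. *Hspa5*, the chaperone BiP that holds the stress sensors inactive, was at 1509.8, 1356 and 1204 CPM in 2-DG and at 655, 717 and 667 CPM in 0× glucose (log2 fold change 1.00, SE 0.07, adjusted p = 3.81e-06, edgeR). *Hsp90b1*, the ER form of HSP90, rose by 0.90 (SE 0.06). *Creld2*, a disulfide isomerase, was at 138, 110.1 and 93.7 CPM against 40.2, 35.1 and 36.6 CPM, a log2 fold change of 1.60 (SE 0.08). *Sdf2l1*, *Dnajc3* and *Dnajb9*, partners of BiP, rose by 1.58 (SE 0.13), 1.41 (SE 0.08) and 1.32 (SE 0.10). In each of these 6 genes every 2-DG library lay above every 0× library.

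ER-associated degradation, which returns misfolded proteins to the cytosol, followed with 13 of 14 genes called higher and none lower (median 0.44). *Derl3*, a channel component of this system, went from 0.663, 0.597 and 0.894 CPM in 0× glucose to 8.84, 4.74 and 4.32 CPM in 2-DG (log2 fold change 2.98, SE 0.23, adjusted p = 6.68e-06, edgeR). *Herpud1*, which organizes the complex, rose 3.29-fold, from 23, 28 and 27.2 CPM to 85.8, 103 and 69.5 CPM. *Syvn1*, the ubiquitin ligase HRD1, and *Sel1l*, its partner, rose by 1.04 (SE 0.08) and 0.69 (SE 0.06). Of 18 genes of ER translocation and the COPII coat, 14 were called higher and 1 lower, and *Sec24d*, a cargo adaptor of COPII vesicles, was the farthest at 86.2, 85.2 and 78.3 CPM against 21.3, 21.7 and 21.8 CPM (log2 fold change 1.95, SE 0.05). *Ssr4*, of the translocon-associated complex, rose by 0.84 (SE 0.06).

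**Figure D2:**
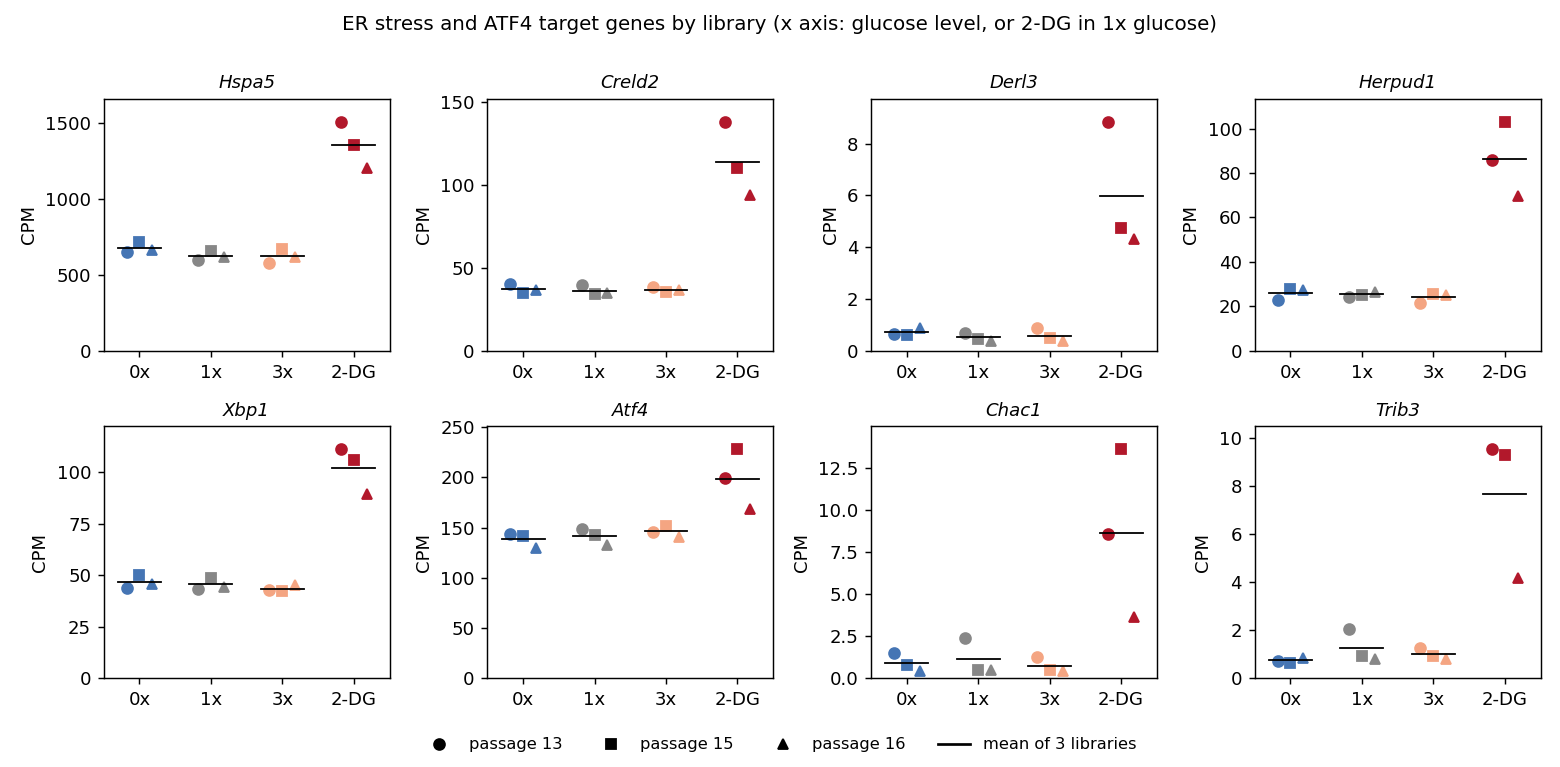
CPM (y axis, from 0) of 8 genes of the unfolded protein response and of ATF4 targets in the 12 libraries, by group (x axis) and passage (symbol), with the mean of 3 libraries as a line. Every 2-DG library lies above every other library in each panel. The log2 fold change of 0× against 1× glucose runs from −0.69 (*Trib3*) to 0.51 (*Derl3*), and none of these genes was called in that contrast.

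Some of these promoters share the ER stress element, CCAAT and CCACG at a distance of 9 bases, which ATF6 and XBP1 bind together with NF-Y. It stood in the promoters of 7 of the 15 chaperone genes with a RefSeq promoter and of 2 of 11 genes of ER-associated degradation, and in 39 of all 32851 promoters (0.119%). One match for each of these genes, all of which were called higher, is shown in the direction in which the element reads CCAAT first, with both of its parts in capitals. A match is a description of the letters in this window and was not tested as a site. *Hsp90b1* holds another match on the opposite strand, which is not shown.
Hspa5 at chr2:34772011-34772057, plus strand: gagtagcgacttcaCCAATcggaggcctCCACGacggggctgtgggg
Hsp90b1 at chr10:86705519-86705565, plus strand: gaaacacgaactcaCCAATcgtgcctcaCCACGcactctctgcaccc
Calr at chr8:84847061-84847107, plus strand: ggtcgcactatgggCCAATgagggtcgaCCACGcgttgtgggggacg
Canx at chr11:50325786-50325832, minus strand: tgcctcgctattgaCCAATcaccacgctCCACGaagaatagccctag
Pdia6 at chr12:17266477-17266523, plus strand: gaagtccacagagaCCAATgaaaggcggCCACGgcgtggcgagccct
Dnajc3 at chr14:118937813-118937859, plus strand: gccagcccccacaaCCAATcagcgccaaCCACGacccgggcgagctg
Creld2 at chr15:88819506-88819552, minus strand: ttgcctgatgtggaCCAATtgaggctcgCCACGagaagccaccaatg
Derl3 at chr10:75893228-75893274, minus strand: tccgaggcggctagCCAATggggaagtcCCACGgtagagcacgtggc
Syvn1 at chr19:6046518-6046564, plus strand: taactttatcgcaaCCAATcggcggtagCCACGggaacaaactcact

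Among the sensors and factors of the unfolded protein response, 7 of 9 were called higher and 1 lower. *Xbp1*, whose mRNA is spliced by IRE1, was at 111, 106 and 89.2 CPM in 2-DG and at 43.9, 50.1 and 45.5 CPM in 0× glucose (log2 fold change 1.14, SE 0.07, adjusted p = 2.65e-06, edgeR). *Eif2ak3*, which encodes PERK, rose by 0.63 (SE 0.06), *Atf4* by 0.51 (SE 0.06) and *Ddit3*, the factor CHOP, by 0.71 (SE 0.15). *Trib3*, an inhibitor of ATF4 that is also its target, went from 0.726, 0.657 and 0.863 CPM to 9.52, 9.29 and 4.16 CPM (log2 fold change 3.28, SE 0.29). ATF4 is translated when PERK or a lack of amino acids stops general translation, and it raises genes of amino acid synthesis and uptake. Of 26 such genes tested, 21 were called higher and 1 lower, with a median of 0.53 in 2-DG against 0× glucose. Against 1× glucose their medians were 0.47 in 2-DG and −0.03 in 0× glucose, where 0 of 26 were called, beside 0.0177% of all genes.

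*Chac1*, which degrades glutathione, was at 8.58, 13.6 and 3.62 CPM in 2-DG and at 1.51, 0.806 and 0.431 CPM in 0× glucose (log2 fold change 3.31, SE 0.44, adjusted p = 0.000174, edgeR). *Slc7a3*, an arginine and lysine transporter, was at 41.5, 22.6 and 20.5 CPM against 4.89, 3.26 and 3.21 CPM, a log2 fold change of 2.86 (SE 0.12). *Asns*, asparagine synthetase, rose 1.74-fold, from 108, 109 and 123 CPM to 219.9, 183 and 186 CPM. *Nupr1*, a stress-induced chromatin protein, had only 33, 16 and 14 counts in 2-DG and 4, 7 and 0 in 0× glucose, and its call (adjusted p = 0.0391, edgeR) held in 7 of 19 alternatives. Aminoacyl-tRNA synthetases, another group with ATF4 targets, had 7 members called higher and 4 lower of 20, beside 43.1% of all genes called, and a median of −0.02. The core of the ATF4 motif, TGATGNAAN, stood in the promoters of 8 of 25 genes of the ATF4 list that have one, in 5 of 13 promoters of the synthetases and in 3.95% of all promoters. Examples from genes that rose are shown in the direction of the motif, which is in capitals.
Chac1 at chr2:119351034-119351070, minus strand: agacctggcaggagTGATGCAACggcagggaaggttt
Nupr1 at chr7:126625559-126625595, plus strand: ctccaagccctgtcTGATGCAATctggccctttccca
Asns at chr6:7693210-7693246, minus strand: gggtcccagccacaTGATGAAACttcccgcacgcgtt
Slc7a11 at chr3:50443657-50443693, minus strand: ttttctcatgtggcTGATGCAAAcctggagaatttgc

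N-glycosylation genes did not move as 1 block. In the oligosaccharyltransferase, which transfers the finished sugar chain to the protein, 10 of 12 subunits were called higher and none lower, with a median of 0.28. *Rpn1* was at 449, 453 and 442 CPM in 2-DG and at 247, 271 and 291 CPM in 0× glucose (log2 fold change 0.74, SE 0.05, adjusted p = 3.67e-06, edgeR), and *Magt1*, *Stt3a* and *Ddost* rose by 0.75, 0.65 and 0.49. In the synthesis of mannose donors and of the dolichol-linked chain, 10 of 27 genes were called higher and 6 lower, with a median of 0.07. Among all genes 21.5% were called higher and 21.5% lower. Without the passage as a block, 7 genes of this synthesis were called higher and 1 lower. *Mpi*, phosphomannose isomerase, which links glucose to mannose metabolism, was at 47.4, 46.3 and 45.9 CPM in 2-DG and at 44, 45 and 44.2 CPM in 0× glucose. Its log2 fold change of 0.07 (SE 0.04) did not pass the test (adjusted p = 0.223, edgeR). *Gmppb*, which makes GDP-mannose, was at −0.008 (SE 0.07), while *Gmppa*, its regulatory partner, rose by 0.53 (SE 0.06). *Alg2*, a mannosyltransferase, rose by 0.55 (SE 0.04), whereas *Alg8*, a glucosyltransferase that acts near the end of the chain's assembly, fell by 0.55 on the log2 scale (SE 0.09). In the hexosamine pathway 4 of 7 genes were called higher and 3 lower, the farthest of these *Gnpnat1*, an acetyltransferase, at −0.35 (SE 0.05). *Gfpt1*, its entry enzyme and a target of XBP1, rose by 0.71 (SE 0.05), from 74.8, 109.9 and 107 CPM to 129, 179 and 168 CPM, and *Uap1*, its last enzyme, by 0.58 (SE 0.06).

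**Figure D3:**
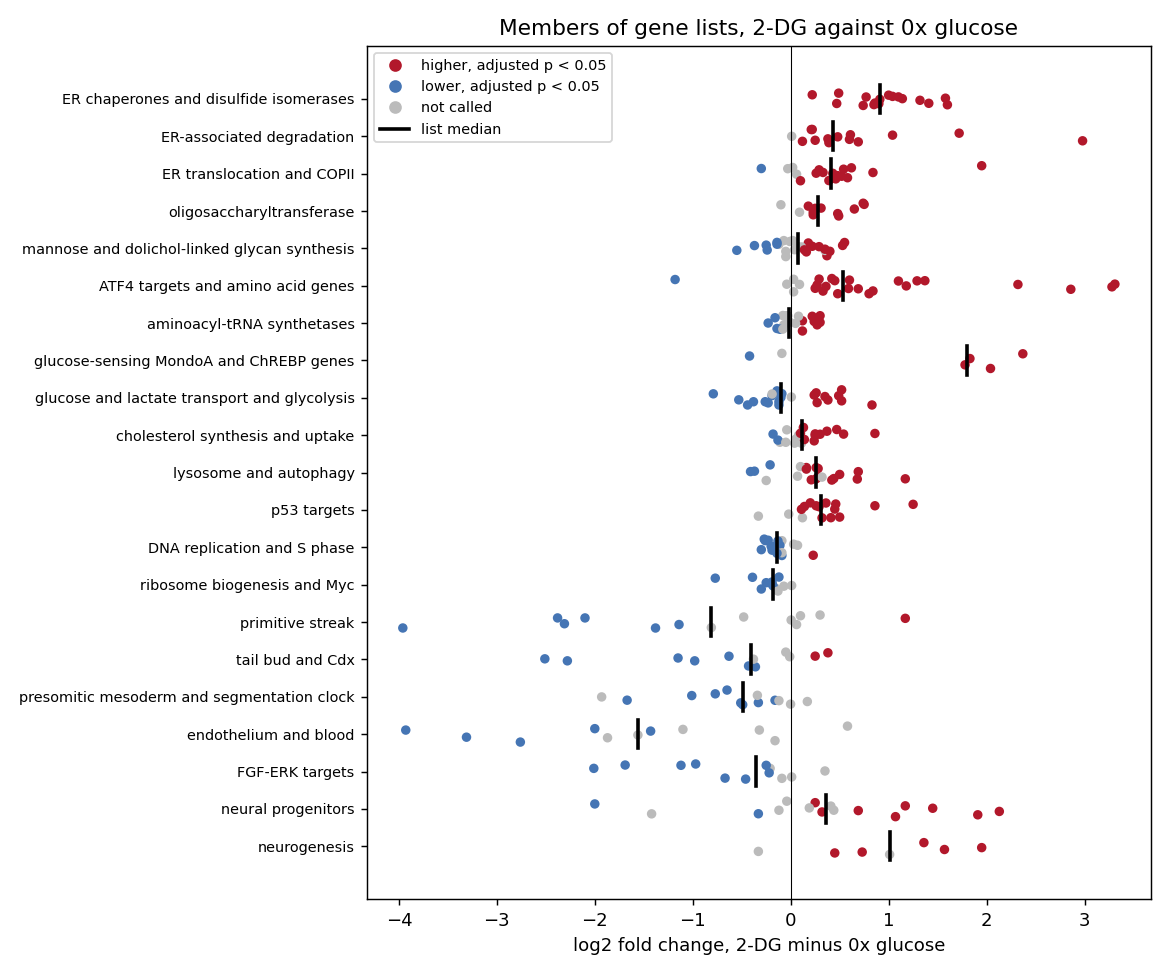
Log2 fold change of 2-DG against 0× glucose (x axis) for each tested member of 21 gene lists (rows), colored by the call, with the list median as a bar. All 17 ER chaperones lie right of 0, glycolysis genes lie on both sides, and primitive streak, tail bud and endothelium genes reach below −2.

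Of 16 p53 targets, 13 were called higher and none lower (median 0.30). Against 1× glucose their medians were 0.19 in 2-DG, with 9 called, and −0.15 in 0× glucose, with none called. The shares of all genes called in these contrasts were 41.3% and 0.0177%. The farthest was *Perp*, a desmosome protein, at 6.65, 6.51 and 7.8 CPM against 3.25, 2.48 and 3.17 CPM (log2 fold change 1.25, SE 0.18), and *Trp53inp1*, a cofactor of p53, was at 0.86 (SE 0.05). Cytosolic and mitochondrial heat shock genes had 2 called higher and 5 lower of 12. The exceptions were *Hspb1*, a small heat shock protein, which rose by 2.31 (SE 0.16), from 1.26, 0.478 and 0.894 CPM to 5.18, 3.41 and 4.08 CPM, and *Bag3*, a partner of HSP70, by 0.64 (SE 0.11). Of 20 genes of lysosome and autophagy, 13 were called higher and 3 lower, among them the lysosomal sugar-cleaving enzymes *Manba* (1.17, SE 0.14) and *Neu1* (0.68, SE 0.08). Of 22 genes of cholesterol synthesis and uptake, 11 were called higher and 2 lower (median 0.12), with *Mvd*, an enzyme of the pathway, at 0.54 (SE 0.04). Beside the counts of these lists, 21.5% of all genes were called higher and 21.5% lower. In either direction, 66.1% of the tested genes of all lists were called.

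Many genes of growth and division were slightly lower in 2-DG. Of 16 genes of S phase, 11 were called lower and 1 higher (median −0.13), of 12 mitotic genes 6 lower (median −0.11), and of 12 genes of ribosome biogenesis and Myc 8 lower (median −0.19), with none higher in the last 2 lists. Of all genes, 21.5% were called lower. Without the passage as a block, 4 genes of S phase, 3 of mitosis and 6 of ribosome biogenesis and Myc were called lower. *Mycn*, the Myc gene of early progenitors, changed the most, at 74.6, 94 and 96.9 CPM in 2-DG and 143, 159 and 148 CPM in 0× glucose (log2 fold change −0.77, SE 0.05, adjusted p = 2.43e-06, edgeR). *Ccne1*, cyclin E, *Pola1*, a DNA polymerase subunit, and *Bub1*, of the spindle checkpoint, were lower by −0.30 (SE 0.03), −0.27 (SE 0.04) and −0.36 (SE 0.05).

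Many mesoderm genes were lower in 2-DG than in 0× glucose. In these bulk samples, fewer cells of a type and less RNA per cell cannot be told apart. Of 13 primitive streak genes, 6 were called lower, all by at least 1 on the log2 scale, and 1 higher, with a median of −0.81. The median of the same genes in 0× against 1× glucose was −0.07. *T/Bra*, the T-box factor of the streak and notochord, was at 64.6, 67.1 and 96.1 CPM in 2-DG and at 327, 149.7 and 164 CPM in 0× glucose (log2 fold change −1.38, SE 0.23, adjusted p = 0.000674, edgeR). *Mixl1*, a homeobox gene of the streak, fell 15.5-fold, from 6.94, 3.82 and 7.49 CPM to 0.293, 0.272 and 0.586 CPM. *Evx1*, a posterior streak gene, was at 6.68, 7.27 and 16 CPM against 92.2, 31.2 and 40.6 CPM (log2 fold change −2.31, SE 0.34). *Nodal*, the ligand that induces mesendoderm, and *Lefty2*, its antagonist, were low in both groups and lower in 2-DG, by −2.10 (SE 0.38) and −2.38 (SE 0.37). *Eomes*, which acts early in the streak, had no more than 29 counts in any of the 6 libraries and did not pass the test (−0.48, SE 0.46). In the Nodal pathway as a list, 6 of 9 genes were called lower and 2 higher, but 3 lower by DESeq2.

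**Figure D4:**
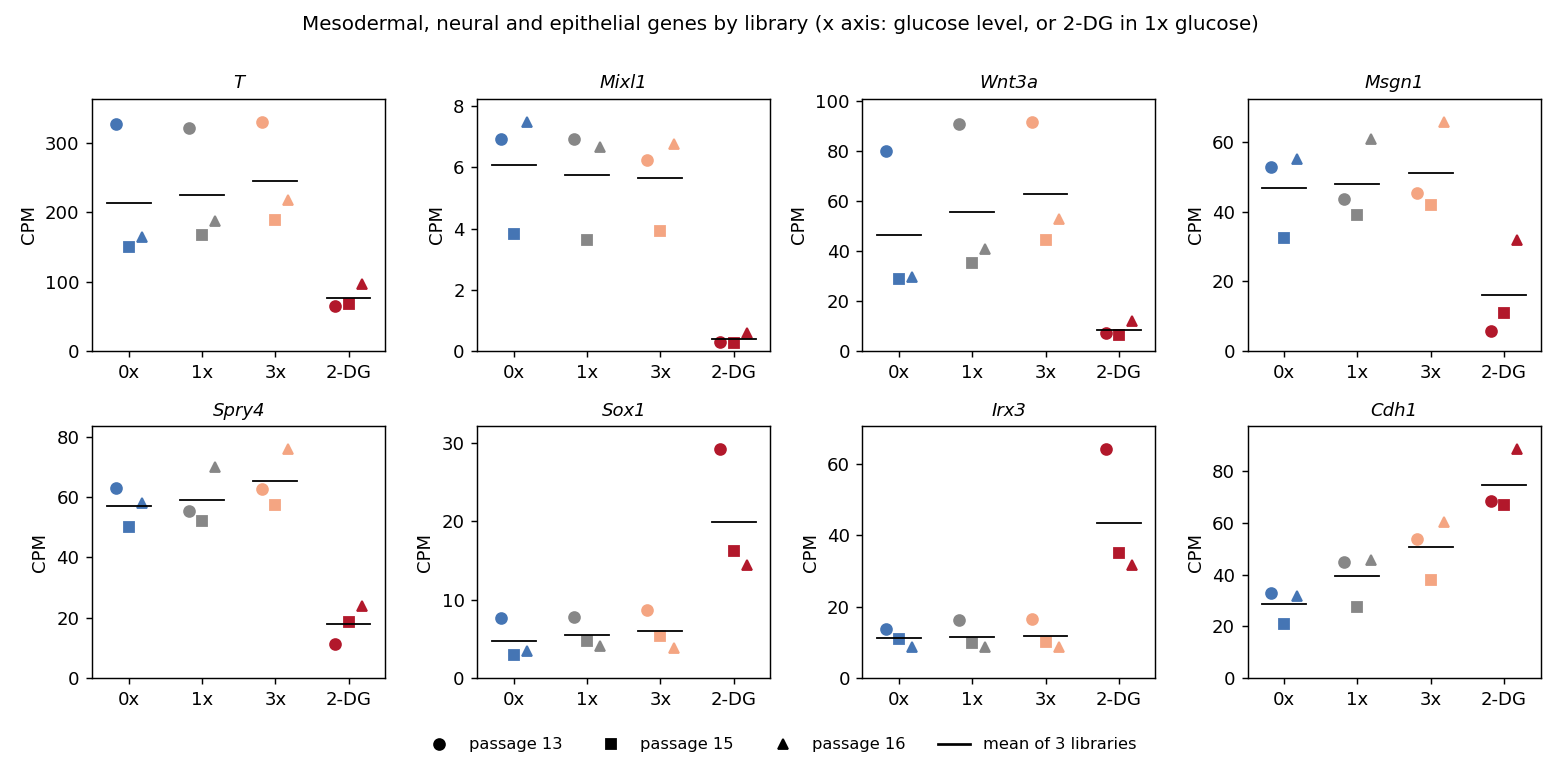
CPM (y axis, from 0) of 8 lineage genes in the 12 libraries, by group (x axis) and passage (symbol), with the mean of 3 libraries as a line. *T/Bra*, *Mixl1*, *Wnt3a*, *Msgn1* and *Spry4* lie lowest in 2-DG, while *Sox1*, *Irx3* and *Cdh1* lie highest there.

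In the tail bud, 7 of 12 genes were called lower and 2 higher. *Wnt3a*, the posterior Wnt ligand, was at 6.97, 6.51 and 11.8 CPM in 2-DG and at 80.1, 28.9 and 29.5 CPM in 0× glucose (log2 fold change −2.28, SE 0.30, adjusted p = 0.000181, edgeR). *Fgf17*, a tail bud FGF, was at 3.98, 4 and 4.9 CPM against 46.3, 20.6 and 16 CPM, a log2 fold change of −2.51 (SE 0.27). *Cyp26a1*, which clears retinoic acid from the tail, fell by 1.15 on the log2 scale (SE 0.23). The Cdx genes, which carry Wnt input to Hox genes, moved both ways. *Cdx1* was called higher (0.25, SE 0.05), whereas the other two were called lower. *Cdx4* was at 20.1, 17.6 and 35.7 CPM against 99.9, 31.2 and 36.5 CPM (adjusted p = 0.033), and *Cdx2* at 156, 96.5 and 121 CPM against 321, 119 and 117 CPM (adjusted p = 0.039, both edgeR). For both the groups overlapped, *Cdx2* was lower in 2 of 3 passages, and the calls held in 8 and 4 of 19 alternatives. Without passage 13 the log2 fold changes were −0.38 for *Cdx4* and −0.12 for *Cdx2*, and neither was called.

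The size of the posterior difference varied with the passage. In passage 13, where 0× glucose had the highest *T/Bra* and *Wnt3a*, the log2 ratio of 2-DG to 0× glucose was −2.34 for *T/Bra* and −3.52 for *Wnt3a*. It was −1.16 and −2.15 in passage 15 and −0.77 and −1.32 in passage 16. The median of the 12 tail bud genes was −1.13 in passage 13, −0.34 in passage 15 and −0.11 in passage 16, on log2 CPM with 0.5 added. ER chaperones varied less, with medians of 1.05, 0.90 and 0.81. Without the libraries of passage 13, called lower were 6 streak genes, 6 tail bud genes, 9 presomitic genes and 5 Hox genes of groups 9 to 13, and called higher were 16 ER chaperones. With 1 library of each group per passage, it was not tested whether the difference between 2-DG and 0× glucose varied with the passage.

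Presomitic mesoderm, which forms the somites, had 8 of 13 genes called lower and none higher, with a median of −0.49. *Msgn1*, a master gene of this tissue, was at 5.65, 11 and 32 CPM in 2-DG and at 52.9, 32.4 and 55.3 CPM in 0× glucose (log2 fold change −1.67, SE 0.33, adjusted p = 0.00206, edgeR). *Tbx6*, which holds presomitic cells from a neural fate, was at 92.8, 152 and 186 CPM against 219, 192 and 251 CPM (log2 fold change −0.65, SE 0.13). *Hes7*, an oscillator of the segmentation clock, and *Nrarp*, a Notch target that cycles with it, were lower by −0.77 (SE 0.12) and −1.01 (SE 0.05). Without the passage as a block 2 genes of this list were called, and *Msgn1* and *Tbx6* were not among them. In somites only *Uncx* and *Tbx18*, which pattern them, were called lower of 8 genes, a share near the 21.5% of all genes called lower. *Meox1*, a somite gene, was at 112, 214 and 124 CPM against 46.9, 313 and 163 CPM, higher in passage 13 and lower in the others, with a log2 fold change of 0.15 (SE 0.32) that did not pass the test. Without passage 13, 6 of the 8 somite genes were called lower.

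Some genes of other mesoderm were lower, and endoderm genes moved both ways. In endothelium and blood, 5 of 11 tested genes were called lower and none higher. *Kdr*, the VEGF receptor, was at 0.351, 0.681 and 0.453 CPM in 2-DG and at 1.29, 5.94 and 8.97 CPM in 0× glucose (log2 fold change −3.31, SE 0.34, adjusted p = 3.69e-05, edgeR). *Lmo2*, a cofactor of early blood formation, was at 4.16, 7.87 and 13.3 CPM against 79.8, 44.6 and 50.9 CPM (log2 fold change −2.76, SE 0.31), and *Gm38515*, a noncoding RNA gene that overlaps it on 13935 bases, was lower by −3.15. *Cdh5*, of endothelial junctions, had 0, 0 and 4 counts in 2-DG and 0, 16 and 46 in 0× glucose. Of 10 genes of lateral plate and intermediate mesoderm, 3 were called lower and none higher, where 21.5% of all genes were called lower and 43.1% in either direction. *Osr1*, of intermediate mesoderm, was lower by −2.35 (SE 0.20). *Noto*, of the node, was at 0 counts in all 3 libraries of 2-DG and at 0, 8 and 11 in 0× glucose, at least 2.31-fold lower against 3 counts per library. Of 12 endoderm genes tested, 5 were called higher and 5 lower, with a median of 0.03. *Krt18*, a keratin of simple epithelia, rose by 1.14 (SE 0.09), while *Foxa2*, a forkhead factor of endoderm and notochord, fell by 1.82 on the log2 scale (SE 0.20). *Sox17*, which specifies endoderm, was lower by −0.71 (SE 0.17), and *Cer1*, a Nodal and Wnt antagonist, was at 5.91, 57.6 and 13.8 CPM against 5.77, 191 and 61 CPM and was called in 7 of 19 alternatives.

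Hox genes differed by their place in the cluster, where paralog groups are numbered from the 3′ end and groups of higher number are expressed later and more posteriorly. Of 12 genes of groups 1 to 4, 7 were called lower and 2 higher, with a median of −0.35. Of 11 genes of groups 5 to 8, 9 were called lower and 1 higher (median −1.11), and of 6 tested genes of groups 9 to 13, 5 were called lower and none higher (median −2.13). Another 10 genes of groups 9 to 13 had too few counts to be tested. The same medians in 0× against 1× glucose were 0.01, −0.04 and 0.07. *Hoxd9* was at 0.117, 0.681 and 0.4 CPM in 2-DG and at 10.6, 12.5 and 9.95 CPM in 0× glucose (log2 fold change −4.83, SE 0.28, adjusted p = 1.39e-06, edgeR). *Hoxa9* was at 1.43, 1.83 and 2.26 CPM against 28.3, 11.3 and 7.3 CPM (log2 fold change −2.82, SE 0.36), and *Hoxc9* at 2.63, 1.74 and 1.81 CPM against 26.6, 8.96 and 5.27 CPM (−2.45, SE 0.26). *Hoxa10* was under 1 CPM in both groups and lower by −1.82 (SE 0.38).

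Within the middle groups the clusters differed in size of change. *Hoxc6* was at 23, 14.8 and 16.7 CPM in 2-DG and at 157, 57.1 and 38.2 CPM in 0× glucose (log2 fold change −2.0, SE 0.22), *Hoxc8* was at −1.89 (SE 0.21), *Hoxd8* at −2.08 (SE 0.11) and *Hoxa6* at −1.52 (SE 0.16). The HoxB genes of these groups, *Hoxb5* to *Hoxb8*, lay between −0.62 and 0.21. Of the first groups, *Hoxc4* (−0.96, SE 0.15) and *Hoxd3* (−0.59, SE 0.06) had the lowest values. Many Hox genes overlap noncoding RNA genes or neighboring Hox genes in the annotation (*Hoxa6* with *Hoxa3*, *Hoxd3* with *Hoxd4*), so their estimated counts depend on how StringTie divided the reads.

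**Figure D5:**
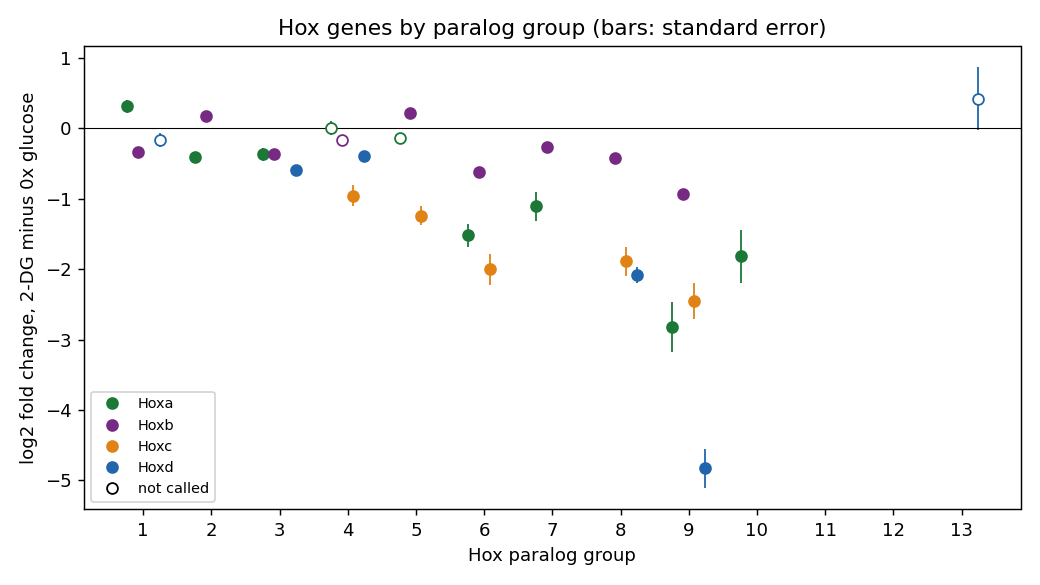
Log2 fold change of 2-DG against 0× glucose (y axis, bars are the standard error) for the 29 tested Hox genes by paralog group (x axis) and cluster (color), with open circles for genes not called. Values lie between −0.96 and 0.31 in groups 1 to 4 and reach −4.83 for *Hoxd9*, and HoxB genes stay nearest to 0 in groups 6 to 9.

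Neural progenitor genes were higher in 2-DG in part. Of 16 tested, 8 were called higher, 5 of them by at least 1 on the log2 scale, and 2 lower, with a median of 0.36. *Sox1*, the earliest marker of neural commitment, was at 29.2, 16.2 and 14.4 CPM in 2-DG and at 7.7, 2.96 and 3.42 CPM in 0× glucose (log2 fold change 2.13, SE 0.13, adjusted p = 1.96e-06, edgeR). *Irx3*, of the intermediate neural tube, was at 64.1, 35 and 31.6 CPM against 13.9, 10.9 and 8.75 CPM, a log2 fold change of 1.91 (SE 0.09). *Sox2*, shared by neural and axial progenitors, rose by 0.69 (SE 0.08) and *Sox3* by 1.45 (SE 0.12), each in 3 of 3 passages. *Pax6* was at 15.5, 7.79 and 4.4 CPM against 3.6, 4.81 and 3.08 CPM (log2 fold change 1.17, SE 0.26), with the largest ratio in passage 13. In neurogenesis 5 of 7 tested genes were called higher and none lower. *Neurog2*, which starts neuronal differentiation, and *Tubb3*, a neuronal tubulin, rose by 1.95 (SE 0.25) and 1.57 (SE 0.15). Of 9 tested genes of neural crest and the plate border, 2 were called higher and 2 lower, a share near the 43.1% of all genes called. The lower genes were the factors *Foxd3* (−2.0, SE 0.57) and *Ets1* (−0.60, SE 0.15). *Sox9*, of neural crest and glia, was at 32.2, 42.7 and 38.1 CPM against 8.43, 16 and 14.6 CPM, a log2 fold change of 1.59 (SE 0.14). *Dbx1*, of spinal interneurons, had 28, 9 and 7 counts in 2-DG and 0, 2 and 3 in 0× glucose and was too low to be tested. *Eya1*, of placodes and mesoderm, did not pass the test (−0.24, SE 0.11).

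Some pluripotency and epithelial genes were higher in 2-DG. *Nanog*, of naive ES cells, was at 5.12, 3.98 and 4.66 CPM in 2-DG and at 2.11, 1.02 and 1.39 CPM in 0× glucose (log2 fold change 1.64, SE 0.16, adjusted p = 3.02e-05, edgeR). 1× glucose lay between, at 3.34, 2.5 and 2.85 CPM, but the difference of 0× from 1× glucose was not called (log2 fold change −0.97, adjusted p = 0.161). Of 7 genes of general and formative pluripotency, 1 was called higher and 2 lower, a share near the 43.1% of all genes called. The higher gene, *Pou5f1*, the factor OCT4, was at 53.1, 42.1 and 51.3 CPM against 30.1, 20.3 and 31.3 CPM (log2 fold change 0.86, SE 0.08). The lower genes were *Dppa4* (−0.64, SE 0.12) and *Lin28a*, an RNA-binding protein (−0.31, SE 0.05), and the summed level of the list was 759, 659.6 and 719 CPM in 2-DG and 1001, 705 and 802 CPM in 0× glucose. *Klf2* and *Zfp42* rose by 1.25 (SE 0.32) and 0.77 (SE 0.17), but with its most abundant transcript alone *Zfp42* was at −0.17. In all, 4 of 10 naive genes were called higher and none lower, where 21.5% of all genes were called higher. In the list of epithelial-mesenchymal transition, 3 of 9 genes were called higher and 3 lower, with a median of −0.12. *Cdh1*, E-cadherin, was at 68.4, 66.9 and 88.3 CPM against 32.7, 20.9 and 31.9 CPM (log2 fold change 1.41, SE 0.10), and *Epcam* rose by 0.94 (SE 0.12). *Snai1*, which represses *Cdh1* when cells leave an epithelium, fell by 0.77 on the log2 scale (SE 0.08), while *Vim*, a mesenchymal filament, rose by 0.49 (SE 0.04). Of 13 matrix genes, 4 were called higher and 4 lower, with a median of 0.12. For both lists the shares to compare are 43.1% of all genes and 66.1% of the tested genes of all lists, called in either direction. *Fn1*, fibronectin, was lower by −0.75 (SE 0.10), and *Sparc* (1.06, SE 0.13) and *Lama5* (0.91, SE 0.12) were higher.

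Of the signaling lists, FGF-ERK targets had 8 of 12 genes called lower and none higher, where 21.5% of all genes were called lower. *Spry4*, a feedback inhibitor of this pathway, was at 11.5, 18.6 and 23.9 CPM in 2-DG and at 63, 50.2 and 58.1 CPM in 0× glucose (log2 fold change −1.69, SE 0.16, adjusted p = 2.79e-05, edgeR). *Egr1*, an immediate early gene, *Etv4*, an ETS factor, and *Il17rd*, another inhibitor, were lower by −2.01 (SE 0.32), −1.12 (SE 0.12) and −0.97 (SE 0.13), and *Dusp6*, an ERK phosphatase, by −0.46 (SE 0.04). *Etv1*, an ETS factor related to *Etv4*, was at 26, 25.6 and 28.4 CPM against 25.7, 26 and 27.5 CPM, and its log2 fold change of 0.01 (SE 0.06) did not pass the test. Of 12 Wnt targets, 5 were called lower and 1 higher, and without the passage as a block 2 were called lower. *Dkk1*, an antagonist induced by Wnt, *Lef1*, a nuclear partner of beta-catenin, and *Axin2*, a feedback inhibitor, were lower by −1.72 (SE 0.41), −0.68 (SE 0.12) and −0.56 (SE 0.14). Their log2 ratios were −3.68, −1.14 and −1.18 in passage 13, and −0.68, −0.53 and −0.11 in passage 16.

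The secreted Wnt antagonist *Frzb* was at 23.1, 32.4 and 37 CPM in 2-DG and at 64.4, 101 and 113 CPM in 0× glucose (log2 fold change −1.58, SE 0.08, adjusted p = 8.61e-07, edgeR). Its log2 ratio was much the same in the 3 passages, at −1.48, −1.64 and −1.62, and *Sfrp1*, of the same family, was lower by −0.83 (SE 0.05). Of 11 BMP ligands and targets, 4 were called lower and 2 higher, and 1 lower without the block. In either direction 6 of 12 Wnt targets and 6 of 11 BMP genes were called, beside 43.1% of all genes. Among the BMP genes were *Bmp2* at 0.556, 1.09 and 1.86 CPM against 3.72, 3.73 and 5.52 CPM (log2 fold change −1.95, SE 0.19) and *Id1*, a direct target, at −0.40 (SE 0.08).

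The 10 genes with the lowest and the 10 with the highest log2 fold changes hold further genes outside these groups. Among the highest were *Ednrb*, the endothelin receptor of neural crest, at 9.08, 2.12 and 1.52 CPM in 2-DG and 0.316, 0.239 and 0.0925 CPM in 0× glucose (log2 fold change 4.09, SE 0.41), and *Cldn3*, a tight junction protein, at 5.77, 3.38 and 4.98 CPM against 0.6, 0.508 and 0.678 CPM (2.96, SE 0.23). *Ccdc85a* and *Rnf112* were higher by 3.06 (SE 0.22) and 2.99 (SE 0.18), in all 3 passages. *Mef2b*, a factor of the MEF2 family, had 155, 52 and 54 counts in 2-DG and 14, 0 and 0 in 0× glucose. In 1× glucose it had 45, 0 and 43. *Mef2b* overlaps *Gm45929*, a protein-coding gene, on 14728 bases, so its estimated counts can depend on how StringTie divided the reads. Among the lowest, next to *Hoxd9*, *Mixl1*, *Kdr* and *Gm38515*, were *Gzmk*, granzyme K, with 0, 5 and 6 counts in 2-DG and 65, 65 and 72 in 0× glucose, *Urad*, an enzyme of urate breakdown, at −3.60 (SE 0.28), *Gm53* at −3.16 (SE 0.36) and *Lix1* at −3.01 (SE 0.38). *Evx1os*, a noncoding RNA gene that overlaps *Evx1* on 1335 bases, was lower by −2.98 (SE 0.41).

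Both outermost genes lie on the same stretch of chromosome 19 and overlap on 2882 bases. *Plpp6*, a lipid phosphatase, had 0 counts in all 3 libraries of 2-DG and 122, 115 and 130 in 0× glucose, and was at least 45.1-fold lower against 3 counts per library. *4430402I18Rik*, which contains it, had 257, 180 and 211 counts in 2-DG and 0, 5 and 0 in 0× glucose. In 1× glucose *Plpp6* had 0, 140 and 0 counts and *4430402I18Rik* 241, 11 and 196, so that in each library nearly all counts were listed under 1 of the 2 genes. Their sum was 7.52, 4.9 and 5.62 CPM in 2-DG and 3.85, 3.58 and 4.01 CPM in 0× glucose, and neither gene can be read alone.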

How the data were processed

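PolyA RNA of pooled gastruloids was sequenced from a stranded kit. The deposited files hold, per library, the estimated counts of 120312 RefSeq transcripts that the authors made with Trim Galore, HISAT2, SAMtools, Picard and StringTie (build mm10). Versions and the strand setting of the counting are not given in the sources used here. The authors' 3 tables of DESeq2 fold changes and p-values were not used.

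Every transcript accession was found in RefSeq (GRCm38.p6), and the counts, which are whole numbers, were summed into 38911 genes. Floors cover counting error only. edgeR 4.0.16 (R 4.3.3) was fitted to all 12 libraries with filterByExpr, TMM normalization and the passage as a block, and two-sided p-values received a Benjamini-Hochberg correction across the 16966 genes tested, with a threshold of 0.05. CPM are TMM-scaled. Residual degrees of freedom were 6. Replicates are ES cell passages of 1 line, and the block removes the passage differences that all groups share. The p-values therefore measure the spread that remains over the 12 libraries after this.

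The block rests on the passage numbers in the labels. Deviations from the group means correlated at 0.317, 0.235 and 0.0963 in the 3 pairs of 2-DG and 0× libraries of the same passage, and between −0.273 and 0.0939 where the passages differed.

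Named genes are the 10 lowest and 10 highest called genes that moved the same way in 3 of 3 passages at a mean of at least 1 CPM, the 4 called members of each of 53 gene lists with the largest change, lead members set for each list, genes named by the study, and genes called between 0× and 1× glucose. Of the 229 genes some are not reported here. In all, 146 genes are described, 3 of them (*Cdx1*, *Mpc2*, *Pdha1*) outside this rule and chosen after their values were seen. Members and lists were chosen with earlier results of these data known. Where all libraries of a group were at 0, the fold is a bound against 3 counts per library. Alternatives were no block, only the groups compared, no filter, median-of-ratios factors, DESeq2 1.42.0, the most abundant transcript, leaving out each library, and, chosen after seeing the data, leaving out passage 13. Simulated counts were drawn from the fitted means and dispersions, with 200 genes changed by known amounts for the comparison of 2-DG with 0× glucose. The changed genes came from those with higher counts, and far fewer were changed than were called in the data. edgeR recovered 77.5% at a log2 fold change of 0.5 (16673 genes) and 99% at both 1 and 2 (16669 genes each). Of its calls, 4.91%, 4.81% and 8.33% were false. Recovery of genes with low counts was not measured.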

Additional observations from a re-analysis of the deposited data

Results flagged for a closer look

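Among the genes described, 3 that were called between 0× and 1× glucose moved in opposite directions from 1× glucose in 2-DG and glucose withdrawal, in every passage. Only the genes described were screened. Others, such as *Hk2* and *Nanog*, also lay on opposite sides of 1× glucose in every passage, but without a call between 0× and 1× glucose. *Txnip* was higher in 2-DG than in 0× glucose by 2.04 on the log2 scale (2-DG at 0.87 and 0× glucose at −1.17 against 1× glucose). *Klf10* was higher by 1.83 (0.91 and −0.92) and *Arrdc4* by 1.78 (0.94 and −0.85). The difference between both treatments is the tested contrast itself, with adjusted p-values of 3.5e-07, 5.55e-09 and 1.54e-07 (edgeR), and all 3 genes were called in each of the 19 alternatives.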

How the results depend on the processing

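Without the passage as a block, 3207 genes were called between 2-DG and 0× glucose, all among the 7305, and 661 by at least 2-fold. Without it 2990 were called between 2-DG and 1× glucose. With each gene's most abundant transcript alone these counts were 2168, 565 and 2015. The other alternatives gave 5094 to 7307 genes between 2-DG and 0× glucose, and in no alternative but the single transcript did a shared call change sign (3 genes). Between 0× and 1× glucose, 5 genes were called with only the groups compared, 6 with the single transcript, 5 without passage 13, 62 by DESeq2 and 3 to 20 when 1 library was left out, the most without 2-DG of passage 13. Near-zero values changed sign: with 1 library left out *Gmppb* ran from −0.05 to 0.04 (0.006 without 2-DG of passage 16), *Eomes* from −0.81 to 0.31 (0.02 without 0× of passage 16), *Etv1* from −0.0019 to 0.04 and *Meox1* from −0.47 to 0.47 (−0.06 without 0× of passage 13). *Meox1* was at −0.22 without the block and at −0.47 without passage 13. With the single transcript *Zfp42* was at −0.17. Genes described that were called lost their call in 37 cases without the block and 43 with the single transcript. Without the block, called lower were 3 tail bud genes (7 with it), 2 presomitic genes (8), 4 S phase genes (11) and 2 Nodal pathway genes (6), whereas 16 of 17 ER chaperones and 15 of 26 ATF4 targets were called higher. Depth limits *Noto*, *Nupr1*, *Cdh5* and *Dbx1*, with under 50 counts in each of the 6 libraries.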
